A study of Mus musculus with 8 samples.

Results

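The coagulation and fibrinolysis factors are the plasma proteins, cell-surface receptors, inhibitors and modifying enzymes that make a fibrin clot and take it apart again. The 34 genes described here were chosen by symbol from that knowledge, with no measured value in the rule, and all 34 were found among the 26166 gene symbols of the count table. All 34 also passed the filter on low counts, although F13a1 did so only through its counts in IXA4-treated livers. For Plat, Plau and Thbd, the vehicle counts by themselves would not have passed it either. Plau would not have passed on its IXA4 counts by themselves. The study asked how pharmacologic activation of the IRE1/XBP1s arm of the unfolded protein response alters the liver in obesity. Bulk RNA-seq was made from the livers of 4 diet-induced obese (DIO) mice given IXA4, a small molecule that activates IRE1, and of 4 DIO mice given vehicle. All 8 mice were male C57BL/6N animals, purchased at 14 weeks of age and kept on a diet with 60% of kcal from fat for 3 weeks before dosing. IXA4 was injected into the peritoneum once a day at 50 mg/kg and the controls received the solvent by the same route, for 8 weeks. No mice on chow and no mice with altered IRE1 or Xbp1 were among these samples, so every value below is from obese livers.

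Clotting runs as a cascade of proteases. Tissue factor (F3) with factor VII starts the extrinsic branch, and kallikrein, kininogen and factors XII, XI, IX and VIII form the contact or intrinsic branch. Both meet at factor X, whose active form with factor V turns prothrombin into thrombin, and thrombin cuts fibrinogen into fibrin, which factor XIII crosslinks. Antithrombin, heparin cofactor II and the protein C system restrain the cascade, plasmin dissolves fibrin, and several of the factors need a carboxylation that depends on vitamin K. Hepatocytes make most of these proteins and send them through the ER into plasma, whereas factor VIII and von Willebrand factor are made mainly by endothelial cells and the A subunit of factor XIII by cells of bone marrow origin.

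With IXA4, 4 of the 34 genes rose and 0 fell at an adjusted p under 0.05 in edgeR's quasi-likelihood test. Those that rose were Fga (a fibrinogen chain), Cpb2 (the carboxypeptidase that protects fibrin from lysis), Ggcx (the vitamin K-dependent carboxylase) and F13a1 (the A subunit of factor XIII). F13a1 reached the test only through its counts in the group where it was high, so its call was fixed in part by the filter. With a filter of 10 counts in every library 3 of 30 members were called higher, beside 427 of all 11356 genes. Of all 12427 genes tested, 3.64% were called higher and 0.990% lower. Before adjustment, 9 of the members were higher and 1 was lower at p under 0.05, against 11.1% and 8.03% of all genes. DESeq2 called 7 members higher and 1 lower, against 5.12% and 2.06% of all genes. In 7 members (Fga, Fgg, Cpb2, Ggcx, F13a1, Kng1 and Kng2) every IXA4 liver lay above every vehicle liver, and in 0 members did every IXA4 liver lie below, where the shares of all genes were 7.44% and 5.24%. The median log2 fold change over the members was 0.08, beside -0.01 over all genes. It was positive in 23 of the 34 members and in 47.9% of all genes. The difference was spread unevenly among the members. In 18 of the 22 members made by hepatocytes the fitted change was within 0.3 on the log2 scale, and in 18 of the 34 the whole 95% interval lay within 0.5. The shares of all genes within these limits were not computed. The lists of members by source hold 22 made by hepatocytes and 9 made mainly outside them. Pros1, Ggcx and Vkorc1 are in neither list and had log2 fold changes of 0.39, 0.52 and 0.06.

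**Figure D1:**
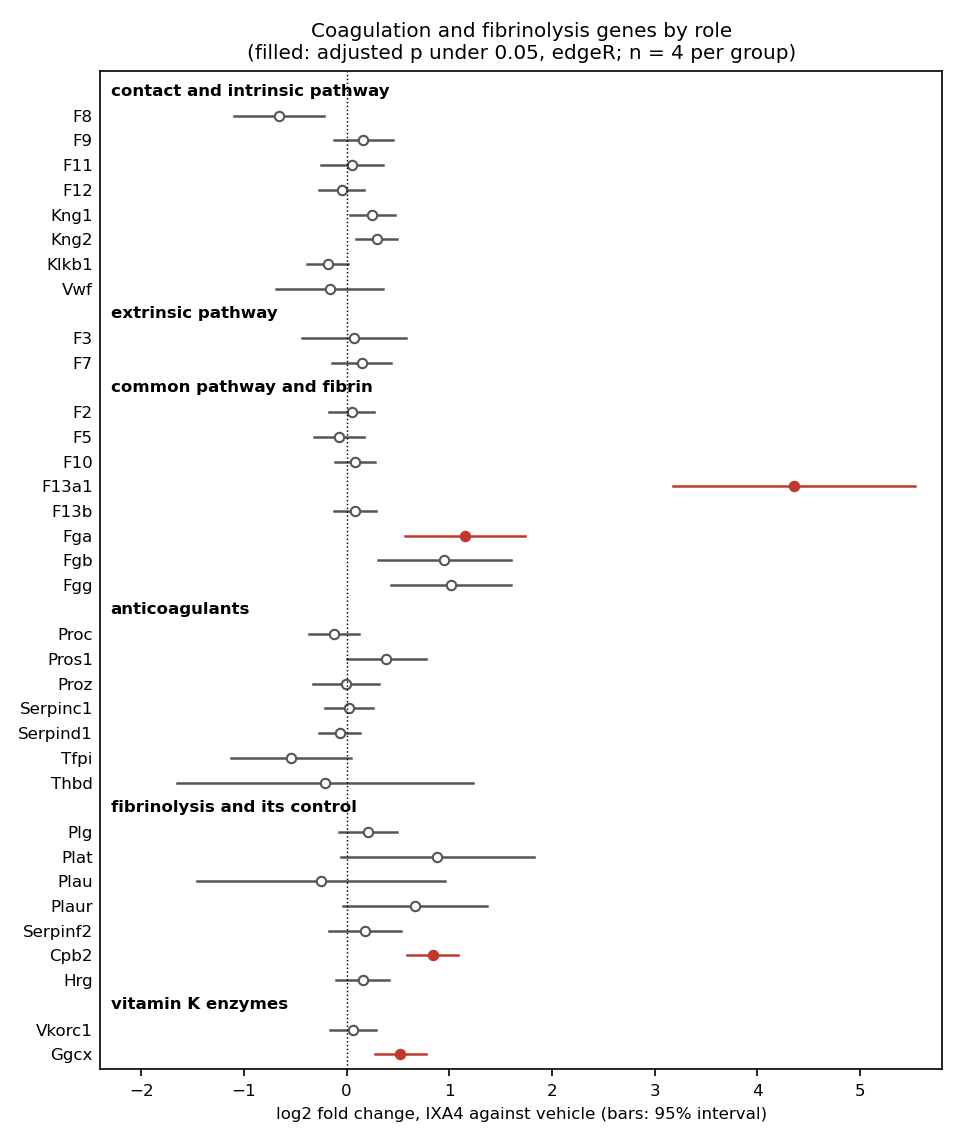
Log2 fold change of each of the 34 genes, IXA4 against vehicle (x axis), grouped by role (y axis), with the 95% interval as a line. The 4 filled points passed an adjusted p under 0.05 in edgeR (n = 4 per group), and most of the other intervals cross 0.

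The libraries held 16986915 to 18390185 counts each, and CPM below is a count divided by the TMM-normalized size of its library, times 1000000. The members together took 2.36 to 2.63% of the counts in vehicle livers and 2.58 to 4.04% in IXA4 livers. Hepatocyte markers were abundant in every library, at a summed 93581 to 119266 CPM with vehicle and 80540 to 110086 CPM with IXA4, and edgeR called 0 of 6 (1 was lower at an unadjusted p under 0.05 and with DESeq2). Markers of other cells were called in both directions. Of 9 endothelial markers 2 were lower (4 with DESeq2), whereas 2 of 7 stellate cell and fibroblast markers, 1 of 5 mesothelial markers and 2 of 5 cholangiocyte markers were higher. The 2 stellate cell and fibroblast markers called were the collagen genes Col1a1 and Col3a1. In that list 4 of the 7 had negative fold changes, and 1 (Rgs5) was lower at an unadjusted p under 0.05. Of the tested macrophage (6), platelet (4), neutrophil (3) and erythroid (4) markers edgeR and DESeq2 called 0, with 1 platelet marker higher and 1 lower at an unadjusted p under 0.05. In bulk tissue, fewer cells of a type and less RNA per cell cannot be told apart, and this holds for each gene below.

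Vehicle replicates 3 and 4 stood apart from the other vehicle livers. Replicate 4 had the lowest level of 15 of the 22 hepatocyte-made members and the highest of 1. Replicate 3 had the highest level of 12 of these 22 and the lowest level of 6 of the 9 members made mainly outside hepatocytes. The endothelial markers of replicate 3 summed to 89.0 CPM, beside 150 to 167 CPM in the other 3. Among IXA4 livers, replicate 2 was the lowest for 17 of the 22 hepatocyte-made members and the highest for 0 of them. Replicate 4 was the highest for 10. For the members, calls that were lost or gained without one of these livers are given beside each gene.

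Among the abundant members, the 3 fibrinogen chains had the largest fitted fold changes, but of these only Fga passed the test in edgeR. Fga, Fgb and Fgg encode the α, β and γ chains, which are assembled in the ER into one hexamer and secreted as the precursor of fibrin. The genes are neighbours on chromosome 3 (82811781 to 82853725 on NCBI build 37, a stretch of 41.9 kb), with Fgb on the strand opposite to Fga and Fgg. Their promoters are shown first because the chains had the same order of IXA4 livers. The sequences are from RefSeq on GRCm38.p6 and run from 250 bases before to 50 bases after the start of the gene. Capitals mark letters of a C/EBP motif (TTGCNNAA), HNF1 letters (GTTAAT) or an IL-6 response type motif (CTGGGAA) on either strand. HNF1 and C/EBP proteins are liver transcription factors, and the IL-6 response type is bound by STAT3. The regions are chr3:83007474-83007773 (plus strand) for Fgg, chr3:83025903-83026202 (plus strand) for Fga and chr3:83049814-83050113 (minus strand) for Fgb.
Fgg: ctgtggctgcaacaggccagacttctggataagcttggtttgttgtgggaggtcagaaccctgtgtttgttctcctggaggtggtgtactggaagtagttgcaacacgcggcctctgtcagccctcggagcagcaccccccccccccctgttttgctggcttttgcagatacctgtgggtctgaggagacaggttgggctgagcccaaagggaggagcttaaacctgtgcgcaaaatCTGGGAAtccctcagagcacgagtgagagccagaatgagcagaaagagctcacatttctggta
Fga: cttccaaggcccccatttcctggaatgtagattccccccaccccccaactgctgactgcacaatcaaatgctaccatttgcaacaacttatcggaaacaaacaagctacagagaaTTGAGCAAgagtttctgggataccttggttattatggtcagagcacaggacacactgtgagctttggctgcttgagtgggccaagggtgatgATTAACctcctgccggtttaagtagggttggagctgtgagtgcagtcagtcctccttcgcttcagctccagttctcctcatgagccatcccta
Fgb: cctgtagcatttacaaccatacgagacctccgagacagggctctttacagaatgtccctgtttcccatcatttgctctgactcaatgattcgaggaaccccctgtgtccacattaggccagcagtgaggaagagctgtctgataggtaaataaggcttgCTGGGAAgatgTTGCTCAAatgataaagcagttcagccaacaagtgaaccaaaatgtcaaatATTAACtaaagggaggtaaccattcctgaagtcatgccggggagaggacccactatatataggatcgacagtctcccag
The C/EBP letters were found in Fga, 135 bases before the start, and in Fgb, 80 bases before it. The HNF1 letters lay 43 bases before the start in Fga and 29 in Fgb. The CTGGGAA letters lay 13 bases before the start in Fgg and 91 in Fgb, and were not in this window of Fga. That motif was added after the values were seen.

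Fga was measured at 3369, 2888, 3091 and 2490 CPM in vehicle replicates 1 to 4 and at 5101, 3685, 9038 and 8467 CPM in IXA4 replicates 1 to 4. All IXA4 livers were above all vehicle livers, but replicates 3 and 4 were far above replicates 1 and 2. The mean was 2.22-fold higher with IXA4 (log2 fold change 1.15, SE 0.26, 95% interval 0.57 to 1.74, adjusted p = 0.0363, edgeR). The call was lost without IXA4 replicate 3 (adjusted p = 0.0634) or 4 (0.118), without any single vehicle replicate (0.0810 to 0.102), and with no filter on low counts (0.116).

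Fgg was at 2579, 2299, 2608 and 2078 CPM with vehicle and at 3651, 2730, 6667 and 6294 CPM with IXA4. Its groups did not overlap either, and its log2 fold change of 1.02 (SE 0.26) had an adjusted p of 0.0616. Fgb was at 3163, 2729, 3147 and 2366 CPM with vehicle and at 4132, 2934, 7638 and 7339 CPM with IXA4. Here IXA4 replicate 2 lay inside the vehicle range, and the log2 fold change of 0.95 (SE 0.29) had an adjusted p of 0.108. Both passed with DESeq2 (adjusted p = 6.27e-04 for Fgg and 0.00375 for Fgb) and in edgeR without IXA4 replicate 2 (0.00222 and 0.00468). Fgg also passed without the robust option (0.0382).

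Together the chains took 0.730 to 0.948% of all counts in vehicle livers. In IXA4 replicates 1 to 4 the shares were 1.28%, 0.944%, 2.24% and 2.19%. The share in replicate 2 was thus inside the vehicle range. The ratio of the chains to one another moved less than their level. Counts of Fga per count of Fgb were 1.04 ± 0.0386 with vehicle and 1.21 ± 0.0466 with IXA4 (SD, n = 4), without overlap (exact permutation test, two-sided, p = 0.0286, the smallest that 4 against 4 allows, and 0.0714 after adjustment over 5 ratios). Fga per Fgg was 1.24 ± 0.0557 with vehicle and 1.36 ± 0.0239 with IXA4, with the same exact p values. For Fgb per Fgg the values were 1.19 ± 0.0376 and 1.13 ± 0.0391 (exact permutation p = 0.0857, adjusted 0.143).

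The order of the IXA4 livers was the same for all 3 chains, with replicate 3 the highest, then 4, 1 and 2. Socs3, a gene induced by STAT3 whose product restrains cytokine signalling, had that order too. It was at 1.08, 1.11, 1.09 and 0.600 CPM with vehicle and at 5.26, 1.57, 32.4 and 14.9 CPM with IXA4 (log2 fold change 3.79, SE 1.01, adjusted p = 0.104, and called in 3 of 14 alternatives). Without IXA4 replicate 3 its log2 fold change was 2.90 (adjusted p = 0.0935), and without IXA4 replicate 2 it was 4.17 (0.0259). The acute-phase genes Saa1 and Hp had other orders. Saa1 was at 4018, 2468, 2706 and 5024 CPM in IXA4 replicates 1 to 4 and at 58.3 to 516 CPM with vehicle. Hp (haptoglobin) was at 5994, 5194, 6771 and 7213 CPM with IXA4 and at 3194 to 4214 CPM with vehicle. The highest vehicle level of both Saa1 and Hp was in replicate 4, which had the lowest level of each fibrinogen chain. These 3 genes were picked after their values had been seen, and their part in the fibrinogen result was not tested.

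**Figure D2:**
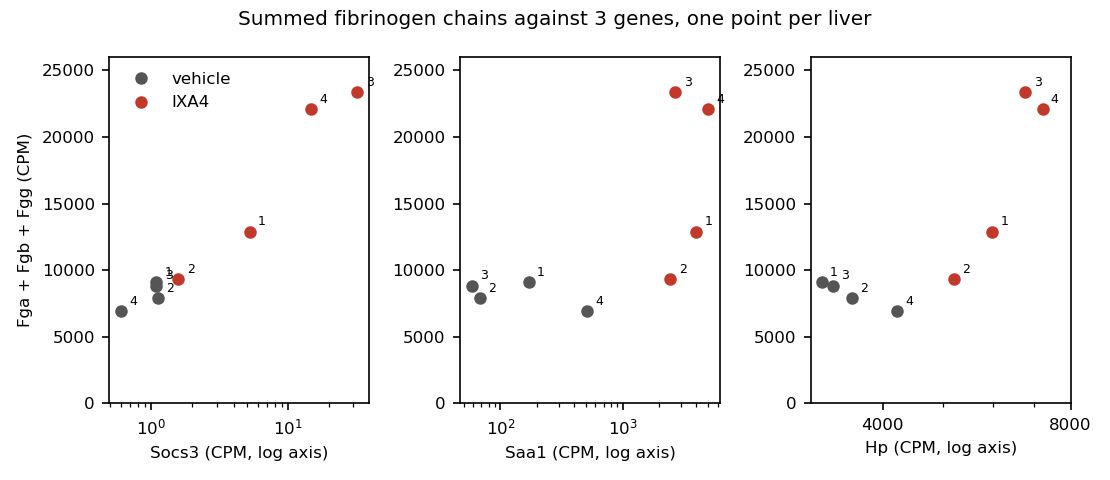
Summed level of Fga, Fgb and Fgg in CPM (y axis) against the level of Socs3, Saa1 or Hp in CPM on a log axis (x axis), with 1 point per liver and its replicate number. The 2 livers with the highest fibrinogen sum, IXA4 replicates 3 and 4, also had the highest Socs3, whereas all IXA4 livers were high for Saa1.

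The rest of the common pathway lay near its vehicle level, apart from F13a1. F2 (prothrombin) was at 2231, 2157, 2508 and 2364 CPM with vehicle and at 2569, 2258, 2367 and 2377 CPM with IXA4 (log2 fold change 0.05, 95% interval -0.17 to 0.27). F10 (factor X) had a log2 fold change of 0.08 (-0.11 to 0.28), F5 (factor V) of -0.08 (-0.32 to 0.17) and F13b (the carrier B subunit of factor XIII) of 0.08 (-0.13 to 0.29). In each of these 4 genes the groups overlapped. The exons of F5 overlap those of Gm16548 on the annotation used, so its reads could be split.

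F13a1, which encodes the catalytic subunit of the fibrin-crosslinking transglutaminase, was close to the floor of detection with vehicle. It had 0, 2, 1 and 1 counts in the vehicle libraries and 20, 32, 14 and 25 counts in the IXA4 libraries. Every IXA4 liver therefore had more counts than the 4 vehicle livers together. The pooled ratio was 23.0, with a 95% interval of 8.68 to 86.2 that covers counting error only, and the fitted log2 fold change was 4.36. Since the gene passed the filter only through the IXA4 libraries, its place among the calls is given as a description, and a filter of 10 counts in every library removed it.

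Values of 4 monocyte genes are given beside it as a description, since they were picked after being seen and the 2 that passed the filter did so only through the IXA4 libraries. Itgam (CD11b) was at 0.325, 0.778, 0.363 and 0.819 CPM with vehicle and at 4.12, 10.7, 3.15 and 7.61 CPM with IXA4. Vcan (versican) had 4 counts over all vehicle livers and 109 over all IXA4 livers. Ccr2 and Ly6c2 did not pass the filter and had, in both cases, 15 counts over the vehicle livers and 41 over the IXA4 livers, with Ly6c2 at 0 in IXA4 replicate 3. The listed macrophage markers summed to 116 to 247 CPM with vehicle and 139 to 261 CPM with IXA4, and the platelet markers to 12.5 to 25.6 CPM and 11.4 to 20.1 CPM. Clec1b held most of the platelet sum, with means of 11.8 CPM with vehicle and 7.71 CPM with IXA4. Pf4, another platelet marker, was at 0.0542 to 0.666 CPM with vehicle and at 0.688 to 1.28 CPM with IXA4, without overlap. Of the 4 platelet markers tested, 1 had a positive fold change and 3 a negative one. The part of other cells in the F13a1 result was not tested.

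Cpb2 gave the result that held in every alternative. It encodes procarboxypeptidase B, also called thrombin-activatable fibrinolysis inhibitor, which once activated trims the residues of fibrin to which plasminogen binds. The gene lies on chromosome 14 (75642094 to 75683358, plus strand, build 37). Its promoter is printed with that of Ggcx, since these are the members called higher in edgeR that hold ACGTG, the core letters recognised by XBP1s. Capitals mark ACGTG, the CCACG letters of the ER stress element, and the C/EBP motif. The regions on GRCm38.p6 are chr14:75242037-75242336 (plus strand) for Cpb2 and chr6:72414058-72414357 (plus strand) for Ggcx, again from RefSeq.
Cpb2: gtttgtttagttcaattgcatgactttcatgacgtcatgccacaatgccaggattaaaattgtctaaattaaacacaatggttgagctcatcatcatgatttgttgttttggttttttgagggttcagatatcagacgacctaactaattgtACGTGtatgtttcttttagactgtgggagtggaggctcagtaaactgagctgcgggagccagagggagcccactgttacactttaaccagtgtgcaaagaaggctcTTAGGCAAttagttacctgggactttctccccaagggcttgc
Ggcx: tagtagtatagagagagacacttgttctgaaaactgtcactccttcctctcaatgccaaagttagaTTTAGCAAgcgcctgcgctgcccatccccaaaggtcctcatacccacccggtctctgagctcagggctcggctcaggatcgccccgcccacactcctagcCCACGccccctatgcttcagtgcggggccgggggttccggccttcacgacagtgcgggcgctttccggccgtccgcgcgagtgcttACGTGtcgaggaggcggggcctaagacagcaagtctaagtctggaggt
ACGTG began 98 bases before the start of Cpb2 and at base 3 after the start of Ggcx. It was also in the promoters of F10, F11, Kng2, Proz, Serpind1 and Tfpi, none of which passed the test in edgeR, and in none of the 3 fibrinogen promoters. Kng2 passed with DESeq2 (adjusted p = 0.0162). Of all promoters, 19.6% held ACGTG, and its part in these results was not tested.

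Cpb2 was at 367, 384, 427 and 456 CPM in vehicle livers and at 792, 626, 702 and 798 CPM in IXA4 livers. The lowest IXA4 liver was thus well above the highest vehicle liver, and IXA4 replicates 3 and 4 did not stand out as they did for fibrinogen. The mean rose 1.79-fold, from 408 ± 40.3 to 730 ± 82.1 CPM (SD, n = 4), with a log2 fold change of 0.84 (SE 0.11, 95% interval 0.59 to 1.08, adjusted p = 0.00111, edgeR). It passed in all 14 alternatives, with log2 fold changes of 0.79 to 0.91 and adjusted p values of 5.14e-10 to 0.00968.

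Of the 7 genes of fibrinolysis and its control, edgeR called Cpb2 alone. Plg encodes plasminogen, the precursor of plasmin, and was at 3008, 2665, 3057 and 2494 CPM with vehicle and at 3368, 2551, 3254 and 3797 CPM with IXA4 (log2 fold change 0.21, 95% interval -0.08 to 0.50). Its groups overlapped through IXA4 replicate 2. Serpinf2, which encodes the plasmin inhibitor α2-antiplasmin, had a log2 fold change of 0.18 (-0.17 to 0.53). Hrg, the histidine-rich glycoprotein that binds plasminogen and heparin, had one of 0.16 (-0.10 to 0.41).

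The activators of plasminogen were scarce. Plat (tissue-type activator) had 9, 17, 3 and 13 counts with vehicle and 15, 18, 12 and 32 with IXA4, and Plau (urokinase) had 8, 18, 8 and 12 against 19, 11, 7 and 1. Both overlapped between the groups, and no difference was detectable at this depth, with 95% intervals of -0.06 to 1.83 for Plat and -1.46 to 0.96 for Plau on the log2 scale. Plat passed the filter with the help of its IXA4 counts, where it was higher, so its interval is a description. Plaur, the urokinase receptor, was at 0.867, 1.50, 0.847 and 2.02 CPM with vehicle and at 1.24, 2.33, 2.58 and 2.19 CPM with IXA4 (log2 fold change 0.66, adjusted p = 0.292).

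Ggcx encodes the ER membrane enzyme that carboxylates glutamate in the vitamin K-dependent factors. Its level was 41.6, 39.7, 34.5 and 34.9 CPM with vehicle and 50.8, 46.9, 53.1 and 65.9 CPM with IXA4. The groups did not overlap, although vehicle replicate 1 and IXA4 replicate 2 were close. The rise was 1.44-fold (log2 fold change 0.52, SE 0.12, 95% interval 0.27 to 0.78, adjusted p = 0.0214, edgeR). It held in 11 of 14 alternatives and was lost without vehicle replicate 2 (adjusted p = 0.0554), 3 (0.0555) or 4 (0.0724). Vkorc1, which recycles vitamin K for the same reaction, was at 88.0, 81.7, 109 and 93.3 CPM with vehicle and at 105, 97.0, 88.2 and 98.1 CPM with IXA4 (log2 fold change 0.06, 95% interval -0.16 to 0.29). Its exons overlap those of Prss53.

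Of the 7 vitamin K-dependent members, the substrates of that enzyme (F2, F7, F9, F10, Proc, Pros1 and Proz), edgeR and DESeq2 called 0 in either direction. Their median log2 fold change was 0.08, with 5 above 0, and 1 was higher at an unadjusted p under 0.05. That was Pros1 (protein S, a cofactor of protein C), at 39.2, 41.6, 26.0 and 39.7 CPM with vehicle and 47.7, 34.3, 52.2 and 57.2 CPM with IXA4 (log2 fold change 0.39, SE 0.18, adjusted p = 0.260). Its lowest liver was vehicle replicate 3.

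**Figure D3:**
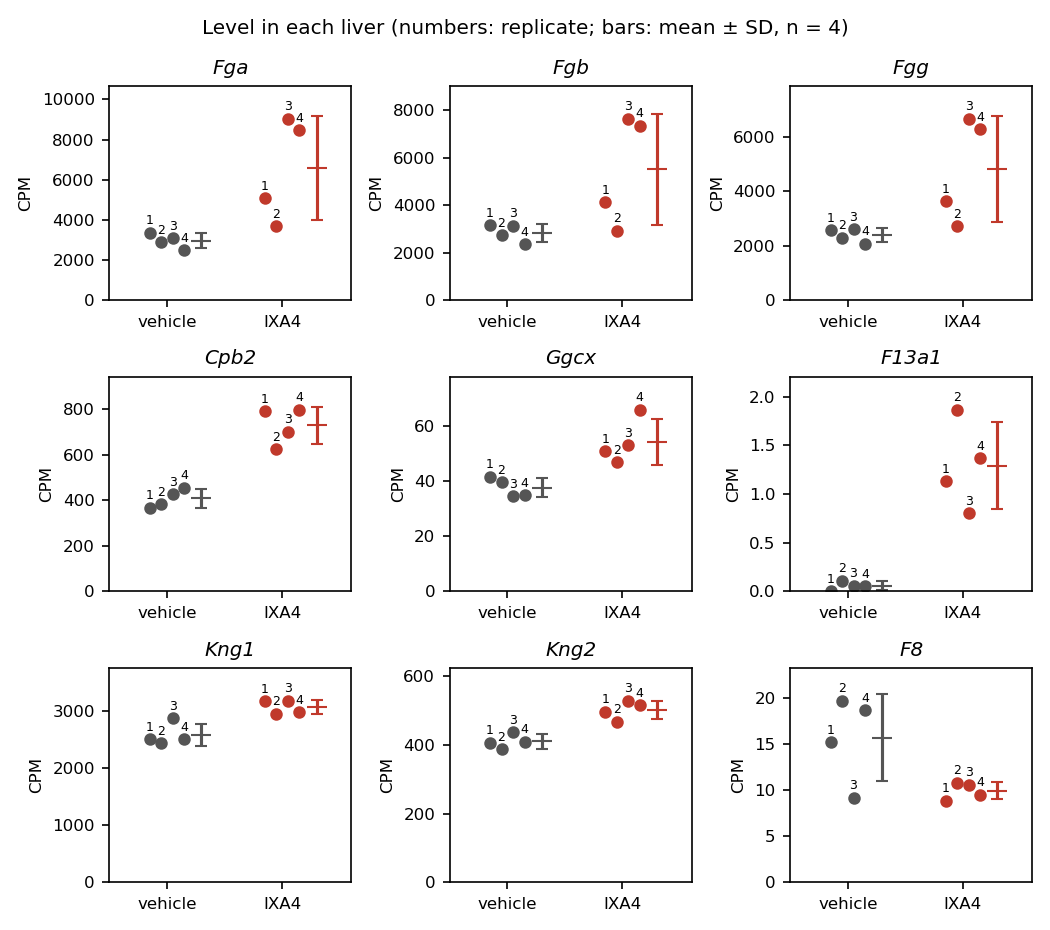
Level in CPM (y axis, from 0) of 9 members in each vehicle and IXA4 liver (x axis), with replicate numbers beside the points and the mean ± SD of 4 livers to their right. The 3 fibrinogen chains are split among the IXA4 livers, with replicates 3 and 4 high, whereas Cpb2 is higher in all 4, at 626 to 798 CPM.

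In the contact and intrinsic pathway, edgeR called 0 of 8 genes, with 2 higher and 1 lower at an unadjusted p under 0.05, and DESeq2 called 1 higher and 1 lower. The kininogens Kng1 and Kng2, from which kallikrein releases bradykinin, were the 2 higher. They lie with Hrg in 131.0 kb of chromosome 16. Kng1 was at 2502, 2434, 2866 and 2505 CPM with vehicle and at 3166, 2950, 3174 and 2970 CPM with IXA4. Kng2 was at 405, 386, 437 and 409 CPM with vehicle and at 495, 467, 528 and 514 CPM with IXA4.

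Neither gene overlapped between the groups, though the differences were small, with log2 fold changes of 0.25 (SE 0.10, adjusted p = 0.200) for Kng1 and 0.29 (SE 0.09, adjusted p = 0.0988) for Kng2. Kng2 passed with DESeq2 (adjusted p = 0.0162). These genes are close in sequence, and how the authors' counting treated reads shared between them is not given in the sources used here. The ratio of Kng1 to Kng2 counts was 6.29 ± 0.193 with vehicle and 6.12 ± 0.284 with IXA4 (exact permutation p = 0.40, adjusted 0.50).

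The proteases of the branch overlapped between the groups. F12 (factor XII) had a log2 fold change of -0.05 (95% interval -0.27 to 0.17), F11 (factor XI) of 0.05 (-0.25 to 0.35), F9 (factor IX) of 0.16 (-0.13 to 0.45) and Klkb1 (plasma kallikrein) of -0.18 (-0.38 to 0.01). F11 and Klkb1 lie within 67.3 kb of chromosome 8, and exons of Klkb1 overlap those of Cyp4v3.

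F8, which encodes the cofactor factor VIII, had the lowest fold change of all members. It was at 15.2, 19.7, 9.20 and 18.7 CPM with vehicle and at 8.87, 10.8, 10.6 and 9.53 CPM with IXA4. Vehicle replicate 3 lay among the IXA4 livers and the other 3 vehicle livers lay above all of them. The log2 fold change was -0.66 (SE 0.20, 95% interval -1.10 to -0.22, adjusted p = 0.0932, edgeR). F8 passed with DESeq2 (adjusted p = 0.0340) and without vehicle replicate 3 (0.00645).

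The summed level of the 9 endothelial markers moved in the same livers. It was 150, 167, 89.0 and 163 CPM with vehicle and 71.4, 99.9, 103 and 106 CPM with IXA4. By this sum, vehicle replicate 3 was again among the IXA4 livers. All 9 had negative fold changes, and Kdr (a VEGF receptor) and Oit3 were called lower (log2 fold changes -0.93 and -1.15). Kdr was called in all 14 alternatives and Oit3 in 9, being lost without vehicle replicate 1, 2 or 4 or IXA4 replicate 2 or 3 (adjusted p = 0.0535 to 0.0753). Single markers did not all place vehicle replicate 3 as the sum did. Kdr, Oit3, Emcn and Lyve1 were higher in it (8.23, 7.99, 1.21 and 4.05 CPM) than in any IXA4 liver. Stab2, Clec4g, Pecam1 and Cdh5 lay within the IXA4 range there, and Fcgr2b lay below it. F8 per 100 summed counts of the 9 markers was 10.2, 11.8, 10.3 and 11.5 with vehicle and 12.4, 10.9, 10.3 and 9.01 with IXA4. This ratio, added after the values were seen, differed by -0.05 on the log2 scale (exact permutation test, two-sided, p = 0.686), so that no difference in F8 relative to their sum was detectable.

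**Figure D4:**
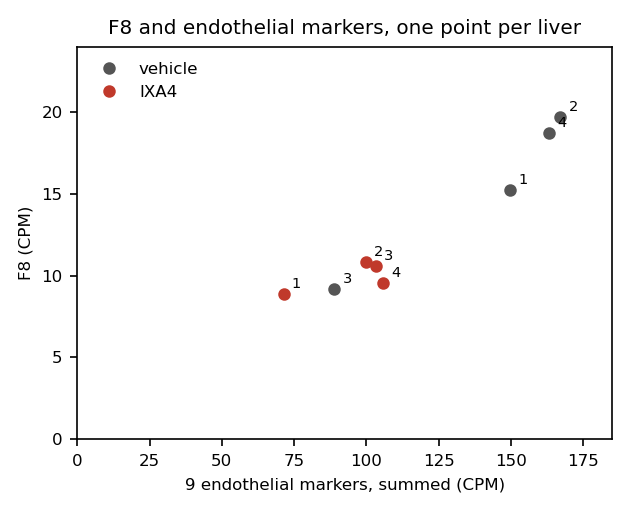
Level of F8 in CPM (y axis) against the summed level of 9 endothelial markers in CPM (x axis), with 1 point per liver and its replicate number. Vehicle replicate 3 (89.0 CPM of markers and 9.20 CPM of F8) lies among the IXA4 livers.

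Of the vehicle livers, replicate 3 was also the lowest for Vwf, Thbd and Tfpi, which endothelial cells express. Vwf, which encodes the carrier of factor VIII and adhesive ligand of platelets, was at 4.33, 5.67, 2.66 and 6.77 CPM with vehicle and at 4.69, 3.97, 4.81 and 3.89 CPM with IXA4 (log2 fold change -0.17, 95% interval -0.69 to 0.36). Thbd (thrombomodulin, the receptor that turns thrombin toward protein C) had 29, 57, 7 and 74 counts with vehicle and 12, 26, 59 and 44 with IXA4. Tfpi (tissue factor pathway inhibitor) was at 2.06, 2.89, 1.57 and 2.89 CPM with vehicle and at 1.07, 2.04, 1.72 and 1.64 CPM with IXA4 (log2 fold change -0.54, adjusted p = 0.299). In all 3 genes the groups overlapped.

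The extrinsic pathway holds a pair of members here. F7 (factor VII) was at 66.0, 63.2, 54.3 and 49.4 CPM with vehicle and at 63.6, 50.5, 66.7 and 77.4 CPM with IXA4 (log2 fold change 0.15, 95% interval -0.14 to 0.43). F3 (tissue factor) was at 1.25, 1.72, 1.88 and 1.36 CPM with vehicle and at 1.58, 1.63, 1.43 and 1.86 CPM with IXA4 (log2 fold change 0.07, 95% interval -0.43 to 0.58). Both overlapped. F7 shares a 49.0 kb stretch of chromosome 8 with F10 and Proz, and neither of those neighbours passed the test.

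Among the anticoagulants edgeR and DESeq2 called 0 of 7, with Pros1 alone under an unadjusted p of 0.05. Serpinc1, which encodes antithrombin, the main plasma inhibitor of thrombin and factor Xa, was at 2234, 2129, 2645 and 2247 CPM with vehicle and at 2428, 2358, 2449 and 2156 CPM with IXA4. The log2 fold change was 0.02, with an interval of -0.21 to 0.25. Serpind1 (heparin cofactor II) had a log2 fold change of -0.07 (-0.27 to 0.13), Proc (protein C) of -0.12 (-0.37 to 0.12) and Proz (protein Z, a cofactor for inhibition of factor Xa) of -0.0049 (-0.32 to 0.31). The intervals of these 4 genes end below the log2 fold change of Cpb2.

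Levels were compared between genes per kb of exon. In vehicle livers Fgb was the highest member at 1734 CPM per kb, followed by Fgg (1217), Serpinc1 (1073), Plg (1018) and Fga (1009). All of these after Fgb overlapped one another between livers. In all, 15 members were at 100 CPM per kb or more in both groups and 9 were under 5 with vehicle, among them F8, F3 and the plasminogen activators. In 21 of the 33 neighbouring pairs of that order the livers overlapped. The lowest member in both groups was F13a1. With the longest transcript in place of the exon union, the same number of members reached 100 CPM per kb, while Kng1 moved from rank 7 to 3.

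**Figure D5:**
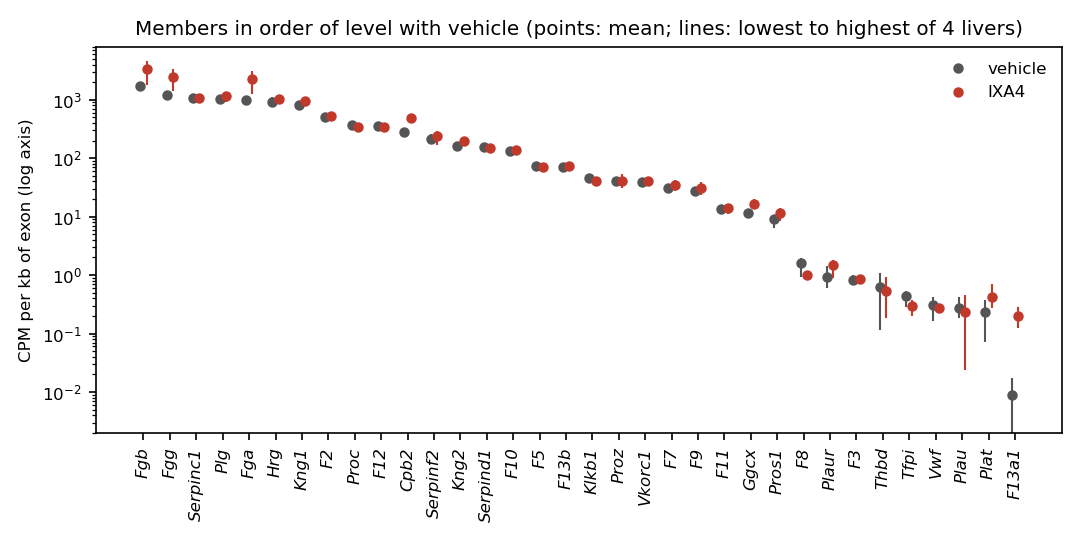
Level of the 34 members in CPM per kb of exon on a log axis (y axis), in their order with vehicle (x axis), with the mean as a point and the lowest to highest of 4 livers as a line. The levels run from 1734 CPM per kb for Fgb to under 5 for 9 members, and the line of F13a1 with vehicle is cut at the axis because 1 library had 0 counts.

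A RefSeq promoter of 300 bases was matched by symbol for 27 of the 34 members, in 29 entries. The C/EBP letters were in 9 of 19 promoters of hepatocyte-made members (47.4%), against 10.8% of all 32851 promoters of that length, and the HNF1 letters GTTAAT were in 5 (26.3%, against 7.1%). ACGTG was in 6 (31.6%, against 19.6%) and CTGGGAA in 4 (21.1%, against 11.1%). Of the ER stress element parts, CCAAT was in 5 (26.3%, against 37.4%) and CCACG in 3 (15.8%, against 32.8%), and the HNF4 core CAAAGTC was in 0 (against 4.44%). Both strands were searched, and CCACG and ACGTG can overlap. A match is a description of the letters only.

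Of 30 other genes of haemostasis, 29 were in the table and 22 were tested, of which edgeR called 3 higher and 0 lower (6 and 2 at an unadjusted p under 0.05, and 4 and 0 with DESeq2). Lman1, which encodes the ER cargo receptor for factors V and VIII, was at 72.2, 75.3, 64.8 and 64.2 CPM with vehicle and at 105, 89.6, 123 and 180 CPM with IXA4 (log2 fold change 0.85, SE 0.19, adjusted p = 0.0277). Its groups did not overlap. F5 and F8, the factors it carries, had log2 fold changes below 0 and did not pass in edgeR.

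Fgl1, a fibrinogen-like protein secreted by hepatocytes, was at 496, 299, 422 and 701 CPM with vehicle and at 1084, 732, 1006 and 1306 CPM with IXA4 (log2 fold change 1.11, SE 0.26, adjusted p = 0.0424). Thbs1, the matrix and platelet protein thrombospondin 1, was low, at 0.325, 1.06, 0.484 and 0.491 CPM with vehicle and at 4.46, 4.66, 2.75 and 2.85 CPM with IXA4 (log2 fold change 2.63). Like F13a1, it passed the filter only through the IXA4 libraries, so its call is a description. Neither gene overlapped between the groups. Fgl1 passed in 6 of 14 alternatives and was lost without vehicle replicate 1, 2 or 3 or IXA4 replicate 1, 3 or 4 (adjusted p = 0.0528 to 0.134). Its call was also lost with total counts (0.0756) and with no filter on low counts (0.120). Lman1 passed in 8 of 14 and was lost without any single vehicle replicate or IXA4 replicate 3 (0.0619 to 0.0788), and with no filter (0.0526).

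The lowest fold change among these genes was that of Adamts13, the protease that trims von Willebrand factor, which is made in the liver by stellate cells. It was at 6.45, 4.78, 4.18 and 4.64 CPM with vehicle and at 2.77, 3.38, 3.50 and 4.11 CPM with IXA4 (log2 fold change -0.54, adjusted p = 0.139), without overlap.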

How the data were processed

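Liver RNA of 4 DIO mice on IXA4 and 4 on vehicle was read in single-end runs (50 bp). The authors aligned these to mouse NCBI build 37.2 with DNAstar SeqManPro and quantified them with ArrayStar 12.2 and QSeq. The deposited table holds whole-number counts per gene symbol for 26166 symbols, with 16986915 to 18390185 counts per library. No strand setting, annotation release or rule for shared reads is given in the sources used here. A deposited table of the authors' DESeq comparison (fold changes and p-values) was not used. The vehicle columns were assigned by their heading. The heading of the other 4 columns does not name IXA4, and they were taken as IXA4 from the rule given for this comparison. Replicate numbers are those of the headings, which are not tied to single mice. The labels call the 4 samples of a treatment biological replicates.

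Genes were kept by filterByExpr (minimum count 10, minimum total 15), which left 12427. After TMM normalization, treatment was tested without covariates by the robust quasi-likelihood F test of edgeR, with Benjamini-Hochberg adjustment over all genes and a threshold of 0.05. SEs are those implied by the F statistic. Single ratios were compared by exact permutation tests. Alternatives were DESeq2, its size factors, total counts, other filters, no robust option and each library left out. The versions were 1.42.0 for DESeq2, 4.0.16 for edgeR, 3.58.1 for limma and 4.3.3 for R. Gene positions and exon lengths were matched by symbol to GENCODE on that assembly, an annotation other than the authors'.

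The members, gene lists and marker lists were chosen with earlier results of these data known. Values for each library are printed for members that passed the test, that did not overlap or that were the most or least abundant of their role group, and of the other haemostasis genes for those that passed and those of largest and smallest fold change. The values of 1 gene under this rule are not reported here. Library values of other genes, among them F8, Pros1, Thbd, Plaur, Plau and Socs3, were added after they had been seen.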

Additional observations from a re-analysis of the deposited data

Results flagged for a closer look

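Of the 68 sets of 4 livers formed by the 34 members in both groups, 2 had a liver whose gap to the nearest of the others was large for the range of the set, where chance gives about 1 in 20 (3.4 of 68). In both it was vehicle replicate 3. Kng1, a kininogen gene, was at 2866 CPM in that liver and at 2434 to 2505 CPM in the other 3 vehicle livers. Pros1, the gene of protein S, was at 26.0 CPM there and at 39.2 to 41.6 CPM in the others.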

How the results depend on the processing

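Of the members, Cpb2 passed under all 14 alternatives. DESeq2 called 7 members higher and 1 lower (F8), and 256 of all genes lower where edgeR called 123. When each library was left out in turn, between 2 and 6 members were called higher and between 0 and 1 lower, with 261 to 613 of all genes higher and 43 to 162 lower. F13a1 was among the members called higher in every one of these fits, although it passes the filter only through the IXA4 libraries. Without vehicle replicate 2, 3 or 4, Cpb2 was the only other member called higher. The number of members without overlap was 7 to 11, the highest without IXA4 replicate 2. Smaller groups separate more easily, and the share of all genes without overlap was not computed for these fits. This number is therefore not read as a result about the members. The median log2 fold change of the members was 0.06 to 0.14. Values near 0 changed sign: Serpinc1 was -0.0090 with total counts and Proz 0.0063 with 10 counts in every library. With a library left out, the log2 fold change ranged from -0.022 to 0.18 for F3, -0.16 to 0.11 for Proz, -0.82 to 0.13 for Plau, -0.018 to 0.10 for Serpinc1, -0.085 to 0.035 for F12, -0.039 to 0.15 for F11, -0.35 to 0.034 for Vwf, -0.59 to 0.20 for Thbd and -0.16 to 0.0079 for F5. The cause was not tested. No paired analysis was possible because the columns carry no animal numbers and the labels share only number 1 between the groups. Depth limits what can be said of F13a1, Plat, Plau and Thbd, which had under 10 counts in at least 1 library.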

Other observations

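Serpinb2, which encodes the plasminogen activator inhibitor PAI-2, was named after its values had been seen. It had 0 counts in the 4 vehicle libraries and 10, 7, 14 and 52 counts in IXA4 replicates 1 to 4. That is at least 28.0-fold higher than a floor of 3 counts over the group. It did not pass the filter and has no test. A2m, an α2-macroglobulin gene, did not pass it either, with 1, 7, 0 and 8 counts with vehicle and 58, 16, 8 and 89 with IXA4. Serpina10, which encodes the protein Z-dependent inhibitor of factor Xa, was at 128, 121, 151 and 134 CPM with vehicle and at 176, 142, 255 and 357 CPM with IXA4 (log2 fold change 0.80, SE 0.26, adjusted p = 0.138 in edgeR). IXA4 replicate 2 was again the lowest treated liver, and Serpina10 passed in edgeR without it (adjusted p = 0.0198) and with DESeq2 (0.0113).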
